A study of Mus musculus with 10 samples.

Results

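The 10 genes described here are the marker genes of fast and slow muscle fibres. The 6 fast genes were Myh1, Myh2, Myh4, Tnnt3, Tnni2 and Atp2a1, and the 4 slow genes were Myh7, Tnnt1, Tnni1 and Atp2a2. They were picked by name from 26180 annotated RefSeq genes on GRCm38, and no threshold on a measured value was used. Every ChIP-seq peak whose midpoint lay in the gene body or within 30 kb of a transcription start site (TSS) of one of these genes was assigned to it. The libraries were made from skeletal muscle of C57BL/6J mice, for which the labels give an age of 10 weeks and the text of the study a different age. One group of mice was fed and the other was starved for 24 h. For each condition there was 1 library per antibody, directed at the glucocorticoid receptor (GR), lysine-specific demethylase 1 (LSD1), H3K9me1 or H3K9me2, and 1 input library that entered only as the control for peak finding. All values therefore describe 8 single libraries of unknown depth, and without replicates no spread is known for any fed and starved pair of values.

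Skeletal muscle fibres are sorted by the isoforms of their contractile proteins. Fast fibres carry fast myosin heavy chains, fast troponins and the fast calcium pump SERCA1, whereas slow fibres carry the slow forms of the same proteins and SERCA2. GR is a nuclear receptor activated by glucocorticoids, hormones whose level rises in starvation and whose excess is known to waste mainly fast fibres. LSD1 removes methyl groups from histone H3, and H3K9me1 and H3K9me2 are the methylated forms of lysine 9, the latter being known from silent chromatin. Peaks in bulk muscle come from all nuclei in the tissue, so that fewer fibres of a type and less binding per nucleus cannot be told apart.

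In fed muscle, GR peaks lay mainly at the fast genes. There were 19 distinct GR peaks in the 303.8 kb of merged fast windows and 3 in the 258.9 kb of slow windows, or 6.25 against 1.16 per 100 kb, while the windows of all annotated genes held 0.819. In starved muscle the counts were 36 and 11, or 11.8 against 4.25 per 100 kb, beside 2.13 for all genes. LSD1 showed the same order, with 18 and 5 peaks in fed muscle (5.92 and 1.93 per 100 kb, all genes 0.993) and 29 and 12 in starved muscle (9.55 and 4.64, all genes 2.89). The density at the fast genes was thus 5.40 times that at the slow genes for GR fed, 2.79 times for GR starved, 3.07 times for LSD1 fed and 2.06 times for LSD1 starved. H3K9me2 had the opposite order in fed muscle, with 22 peaks at the fast and 28 at the slow genes, or 7.24 and 10.8 per 100 kb against 7.72 for all genes. When the LSD1 starved list was cut to the length of the LSD1 fed list by fold enrichment, its ratio turned to 0.568, from 4 and 6 peaks. Without Tnnt3 and Tnni2, the 2 fast troponin genes beside Lsp1, the GR starved ratio was 1.76, from 14 peaks against 11.

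**Figure D1:**
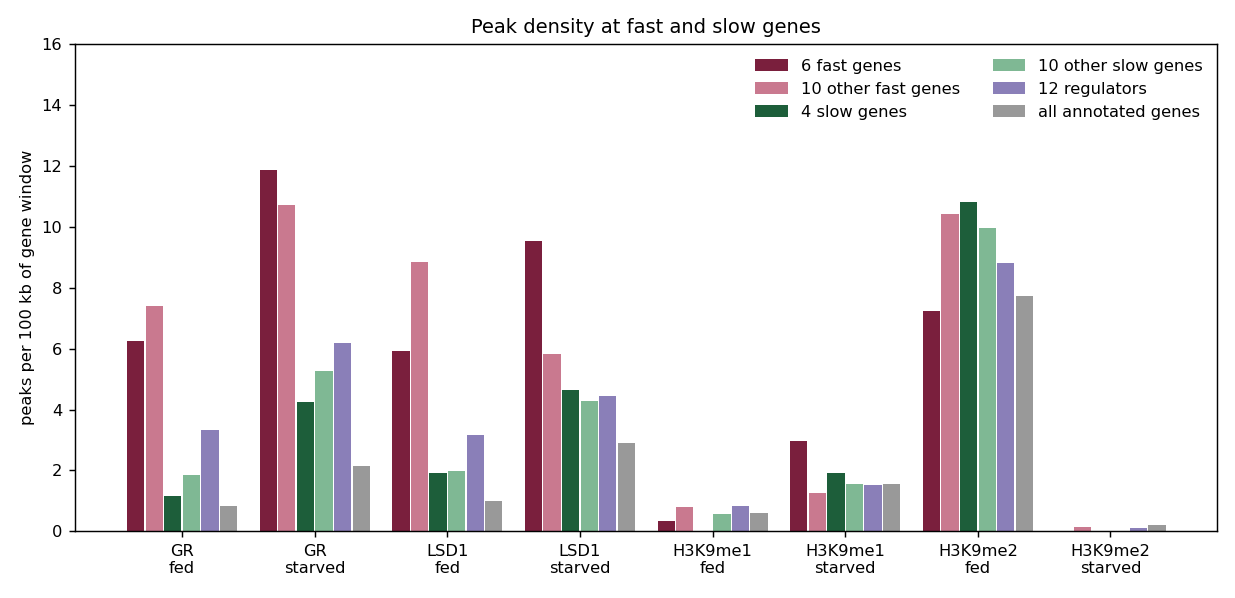
Peaks per 100 kb of gene window (bars, from 0) in each of the 8 lists, for the 6 fast and 4 slow genes, 10 other fast and 10 other slow genes, 12 regulators and all annotated genes. The 6 fast genes stand at 6.25 and the 4 slow genes at 1.16 in GR fed, against 0.819 for all genes. Each bar is 1 library, so no error bar can be drawn.

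Every fast gene had a GR peak in fed muscle, whereas 2 of the 4 slow genes, Myh7 and Atp2a2, had none. This made 8 of 10 genes, where 43.1% of all annotated genes had a GR peak in such a window. The GR fed peaks of Myh2 and Myh4 lay nearest to the start of another gene, as did those of Tnnt1 and Tnni1. In starved muscle all 10 genes had a GR peak, against 66.5% of all genes. The GR starved peaks of Myh2, Myh7, Tnnt1 and Atp2a2 all lay nearest to the start of another gene. LSD1 peaks were present at all 10 genes in both conditions, against 51.1% of all genes in fed and 83.7% in starved muscle. The LSD1 fed peaks of Myh2, Myh4, Myh7, Tnnt1 and Tnni1 all lay nearest to the start of another gene. So did the LSD1 starved peaks of Myh4 and Myh7. For H3K9me1 there was 1 gene with a peak in fed muscle (all genes 38%) and 8 genes in starved muscle (all genes 65.6%). All 10 genes carried H3K9me2 peaks in fed muscle, which is near the background of 95.5%, and none did in starved muscle, where 10.2% of all genes had one. The windows of the 10 genes were 60.001 to 60.091 kb long, beside a median of 60.001 kb over all genes, except that of Atp2a2, which was 78.7 kb.

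**Figure D2:**
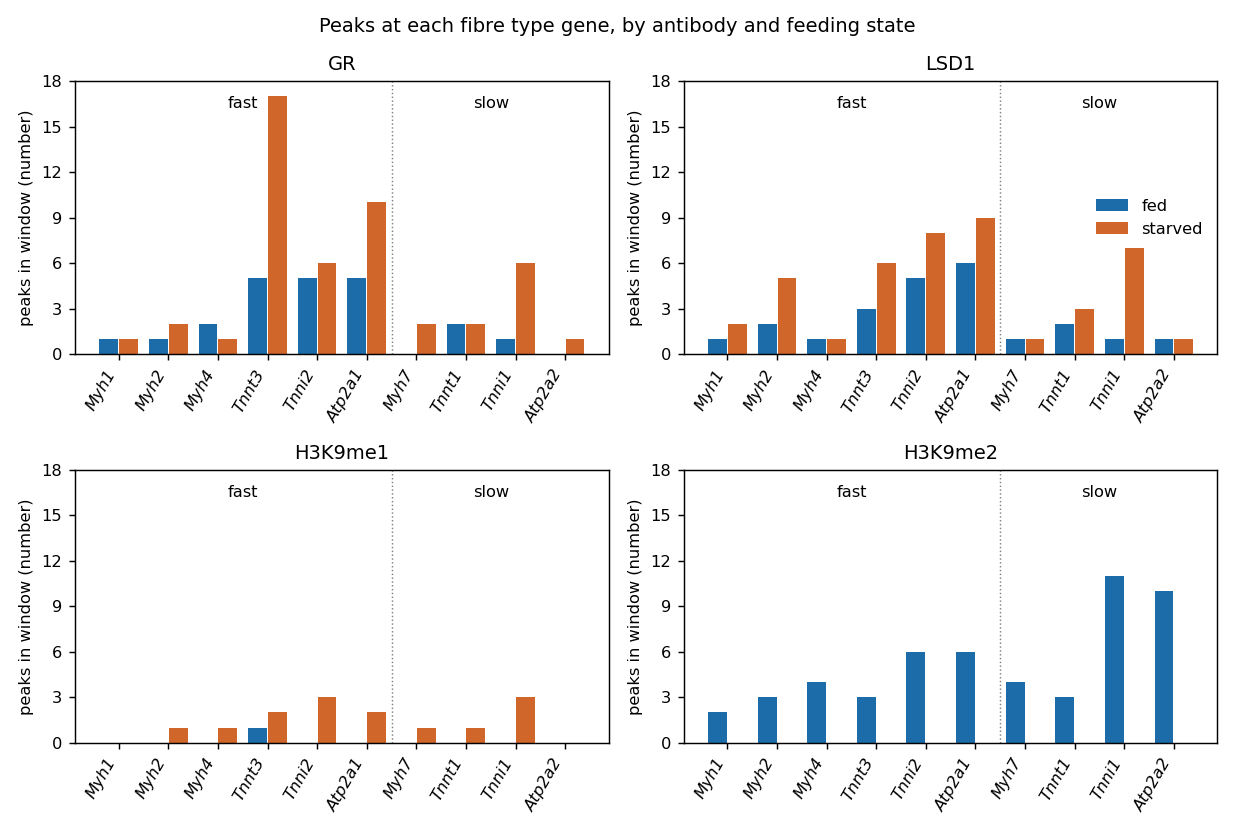
Number of peaks in the window of each of the 10 genes (bars, from 0), with 1 panel per antibody and fed and starved libraries side by side. GR peaks reach 17 at Tnnt3 in starved muscle and are absent from Myh7 and Atp2a2 in fed muscle. H3K9me2 has bars in the fed library only.

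Peaks centred on the promoters of the 10 genes, taken as 1000 bp upstream to 100 bp downstream of a TSS, were counted next. Promoters of other genes in the windows are left out of these counts. GR fed had no midpoint in the promoter of any of the 10 genes (all genes 13.4%). GR starved had 1 at each of 2 fast genes, Tnni2 and Atp2a1 (all genes 23.3%). LSD1 fed peaks were centred on the promoters of 4 genes, Tnnt3, Tnni2, Atp2a1 and Atp2a2 (all genes 22.4%), and LSD1 starved peaks on those of Tnnt3, Tnni2, Tnnt1 and Atp2a2, again 4 genes (all genes 16.2%). Of the 19 GR fed peaks at fast genes, 10 lay within 5 kb of the gene's own TSS and 11 had a TSS of one of the 10 genes as their nearest. For the 3 GR fed peaks at slow genes both numbers were 0, so these peaks lay nearer to the start of another gene. Of the 36 GR starved peaks at fast genes, 12 lay within 5 kb of the gene's own TSS. Only 13 of the 36 had a TSS of one of the 10 genes as their nearest. For the 11 GR starved peaks at slow genes both numbers were 2.

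**Figure D3:**
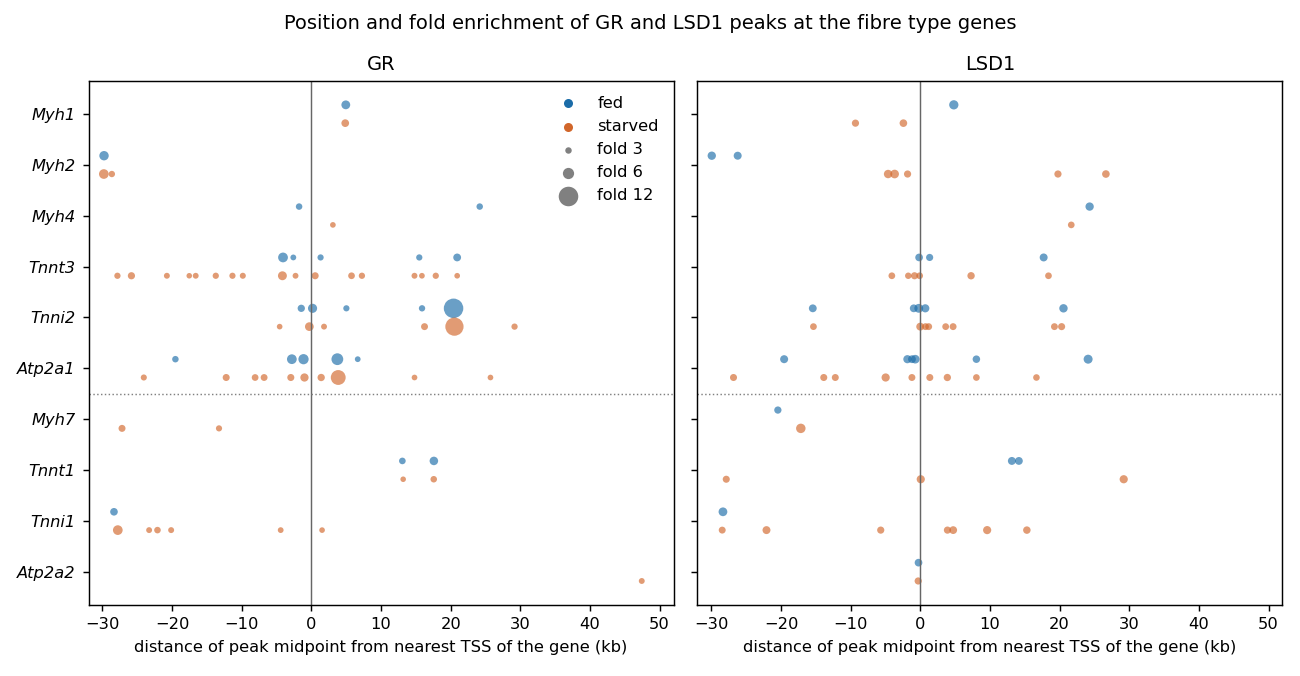
Distance of each GR (left) and LSD1 (right) peak midpoint from the nearest TSS of its gene in kb, with 1 row per gene, fed above starved, and point area growing with fold enrichment over input. The largest points are the pair at Tnni2, 20.4 kb downstream of the TSS, with a fold of 11.95 in fed muscle, and the slow genes have no GR fed point within 5 kb of a start.

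Myosin heavy chains are the motor proteins whose isoform sets the speed of a fibre. Myh2, Myh1 and Myh4, which encode the 2A, 2X and 2B isoforms, lie next to each other on the plus strand of chromosome 11, at 67171027 to 67197517, 67200102 to 67224575 and 67237812 to 67260447. Their windows overlap, and merged into 1 stretch of 126.8 kb they held 4 GR peaks in fed and 4 in starved muscle, 4 and 6 LSD1 peaks, and 7 H3K9me2 peaks in fed muscle. These counts did not rise in starved muscle for GR, while the GR list as a whole grew 2.68-fold.

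At Myh2 the GR fed peak chr11:67141081-67141424 lay 29.8 kb upstream of the TSS with a fold enrichment over input of 4.81, and its starved counterpart had a fold of 4.98. An LSD1 fed peak with a fold of 4.13 overlapped both, and the start nearest to this site was that of 2310065F04Rik. In starved muscle LSD1 peaks were also found 4.62, 3.69 and 1.83 kb upstream of the Myh2 start, with folds of 4.19, 4.34 and 3.43. The first pair of these were 49 bp long, the shortest length in that list. At Myh1 a GR peak lay in an intron 4.94 kb downstream of the start, chr11:67204796-67205288, with a fold of 4.44 in fed and 3.74 in starved muscle, and the LSD1 fed peak there had a fold of 4.72. Myh4 had 2 weak GR fed peaks, 1.77 kb upstream with a fold of 3.03 and 24.2 kb downstream with a fold of 3.02. They lay nearest to the starts of Myhas and Myh8, with q-values of 0.0182 and 0.0154. Neither had a starved counterpart, and the only GR starved peak at Myh4 lay 3.09 kb downstream with a fold of 2.55. The Myh4 promoter is shown as one without a GR or LSD1 peak. Its 250 bases upstream of the TSS hold 1 match to the MEF2 motif and 1 CAGCTG E-box, the sequence bound by myogenic factors, both in capitals and without shared letters (chr11:67237562-67237811, plus strand, RefSeq on GRCm38.p6).
Myh4 promoter: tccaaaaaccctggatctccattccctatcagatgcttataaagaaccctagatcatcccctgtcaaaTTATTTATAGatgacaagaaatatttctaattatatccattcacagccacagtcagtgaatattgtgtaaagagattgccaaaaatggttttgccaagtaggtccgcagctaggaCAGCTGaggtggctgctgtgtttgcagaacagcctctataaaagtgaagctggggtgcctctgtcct

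Myh7, the slow myosin heavy chain (chromosome 14, 54970684 to 54994626, minus strand), had no GR peak in fed muscle. In starved muscle 2 were present, 13.3 kb and 27.2 kb upstream of the start, with folds of 2.83 and 3.32, and both lay nearest to the start of Ngdn. The LSD1 fed peak, with a fold of 3.48, was centred in the Ngdn promoter. The LSD1 starved peak had a fold of 4.85 and ranked 492 in its list, but was 49 bp long and 87.8% repeat-masked. No GR or LSD1 peak of any list lay within 10 kb of a Myh7 start.

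Troponin T ties the troponin complex to tropomyosin, and troponin I blocks contraction until calcium is bound. The fast forms Tnni2 (chromosome 7, 142441816 to 142444410) and Tnnt3 (142498836 to 142516009) lie on the same stretch of the plus strand, with Lsp1 between them. The strongest GR site of the 10 genes lay there, in an intron of Lsp1, 20.4 kb downstream of the Tnni2 start. It was nearest to a start of Lsp1, 1.42 kb from the fed midpoint. Its fold was 11.95 in fed muscle (chr7:142461494-142462961, q = 4.39e-68, rank 41 of 14108) and 11 in starved muscle (chr7:142461352-142463357, q = 2.69e-73, rank 25 of 37783). LSD1 peaks within it had folds of 4.18 in fed and 3.38 in starved muscle. The site was thus near the top of the GR list in both libraries. The 300 bases around the midpoint of the fed peak are shown because this was the highest GR fed peak of the fast genes, with the CAGCTG E-box in capitals (chr7:142462078-142462377, plus strand, GRCm38).
Tnni2 20.4 kb downstream: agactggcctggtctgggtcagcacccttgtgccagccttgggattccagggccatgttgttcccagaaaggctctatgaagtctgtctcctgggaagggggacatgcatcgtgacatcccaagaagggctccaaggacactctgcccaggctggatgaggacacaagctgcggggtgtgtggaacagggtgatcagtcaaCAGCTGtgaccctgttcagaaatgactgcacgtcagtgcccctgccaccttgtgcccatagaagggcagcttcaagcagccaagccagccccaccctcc

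Another GR peak covered the Tnni2 start itself. It had a fold of 4.64 in fed muscle (chr7:142441554-142442409, midpoint 0.166 kb downstream) and a fold of 4.38 in starved muscle, where 1 peak of 1934 bp took in this site and the one 1.45 kb upstream. LSD1 peaks at the start had folds of 4.46 in fed and 3.86 in starved muscle. In all, Tnni2 had 5 GR and 5 LSD1 peaks in fed muscle and 6 GR and 8 LSD1 peaks in starved muscle.

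Tnnt3 was the gene with the most GR peaks in starved muscle, 17 against 5 in fed muscle. Its highest GR peak lay 4.08 kb upstream of the start, over an exon of Lsp1, with folds of 5.05 in fed (chr7:142494550-142494971) and 4.50 in starved muscle. Of the 17 starved peaks, 9 fell on the neighbouring gene Lsp1, and the folds of the others ranged from 2.55 to 3.35. LSD1 peaks were centred on the Tnnt3 promoter in both conditions, at folds of 3.73 in fed and 3.41 and 3.17 in starved muscle. Tnnt3 was also the only one of the 10 genes with an H3K9me1 peak in fed muscle, 29.0 kb downstream of the start with a fold of 3.87.

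In fed muscle the slow troponin genes had 2 (Tnnt1) and 1 (Tnni1) GR peaks, against 5 at each of the fast ones, and none of these lay within 5 kb of the start of its gene. At Tnnt1 (chromosome 7, 4504570 to 4515975, minus strand) the 2 GR fed peaks lay 17.6 and 13.1 kb downstream of the start, in an intron of Ppp1r12c and between the genes, with folds of 4.25 and 3.11. Both were present in starved muscle, at folds of 3.04 and 2.49. An LSD1 starved peak of 49 bp, with a fold of 4.03, was centred 0.067 kb downstream of the Tnnt1 start. The first of the GR sites is shown because it was the highest GR fed peak of the slow genes, and its 300 bases hold neither a CAGCTG E-box nor a MEF2 match (chr7:4498240-4498539, plus strand, GRCm38).
Tnnt1 17.6 kb downstream: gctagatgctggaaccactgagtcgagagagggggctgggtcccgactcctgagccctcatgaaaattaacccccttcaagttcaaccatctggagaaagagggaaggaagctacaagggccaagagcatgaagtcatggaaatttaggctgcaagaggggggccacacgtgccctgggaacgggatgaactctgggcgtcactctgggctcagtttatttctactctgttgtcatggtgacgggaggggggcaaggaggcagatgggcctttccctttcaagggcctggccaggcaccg

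At Tnni1 (chromosome 1, 135799421 to 135810989, plus strand) GR had 1 peak in fed and 6 in starved muscle, and LSD1 had 1 and 7. The fed site lay 28.3 kb upstream, nearest to the start of Phlda3, and was present in 6 of the 8 lists. Its fold was 3.69 in GR fed (chr1:135770955-135771197), 4.99 in GR starved, 4.39 in LSD1 fed, 3.29 in LSD1 starved, 3.79 in H3K9me1 starved and 3.68 in H3K9me2 fed. Of the 3 GR sites of slow genes present in both conditions, it was the only one with a higher fold in starved than in fed muscle. Its 300 bases are shown for this reason, with the E-box in capitals (chr1:135770926-135771225, plus strand, GRCm38).
Tnni1 28.3 kb upstream: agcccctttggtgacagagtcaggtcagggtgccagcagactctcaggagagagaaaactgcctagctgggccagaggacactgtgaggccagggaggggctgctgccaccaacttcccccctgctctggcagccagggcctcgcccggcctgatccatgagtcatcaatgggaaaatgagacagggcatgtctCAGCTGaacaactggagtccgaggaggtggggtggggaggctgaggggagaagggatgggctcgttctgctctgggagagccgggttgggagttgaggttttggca
The 2 GR starved peaks nearest to the Tnni1 start, 4.41 kb upstream and 1.53 kb downstream, had folds of 2.61 and 2.54.

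Atp2a1 and Atp2a2 encode SERCA1 and SERCA2, the pumps that return calcium to the sarcoplasmic reticulum in fast and slow fibres. At Atp2a1 (chromosome 7, 126445860 to 126463073, minus strand) 5 GR and 6 LSD1 peaks were found in fed muscle and 10 and 9 in starved muscle. Its highest GR peak lay in an intron 3.73 kb downstream of the start, with a fold of 6.38 in fed muscle (chr7:126459021-126459669) and of 8.51 in starved muscle (chr7:126458676-126459763, rank 93 of 37783). An LSD1 peak with a fold of 3.49 lay within it in starved muscle only. The 300 bases at its centre hold no CAGCTG E-box and no MEF2 match (chr7:126459195-126459494, plus strand, GRCm38).
Atp2a1 3.73 kb downstream: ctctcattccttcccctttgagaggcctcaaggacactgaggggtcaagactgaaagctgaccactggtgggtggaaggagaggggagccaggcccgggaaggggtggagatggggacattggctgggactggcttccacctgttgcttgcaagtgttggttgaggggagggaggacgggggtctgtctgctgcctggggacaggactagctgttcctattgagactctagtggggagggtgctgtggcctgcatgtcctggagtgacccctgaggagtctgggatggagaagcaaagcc

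A broad GR peak of 2081 bp began just upstream of the Atp2a1 start, with a fold of 5.34 in fed muscle (chr7:126463164-126465244). In starved muscle it was 2154 bp long, spanned the start and had a fold of 4.08. Of the 6 LSD1 fed peaks of Atp2a1, 3 lay within this stretch, with folds of 4.34, 3.82 and 4.03. The 250 bases upstream of the start are shown because the GR fed peak covers their distal part (chr7:126463074-126463323, minus strand, RefSeq on GRCm38.p6). The E-box, in capitals, lies between the start and the GR fed peak, outside that peak but within the GR starved peak.
Atp2a1 promoter: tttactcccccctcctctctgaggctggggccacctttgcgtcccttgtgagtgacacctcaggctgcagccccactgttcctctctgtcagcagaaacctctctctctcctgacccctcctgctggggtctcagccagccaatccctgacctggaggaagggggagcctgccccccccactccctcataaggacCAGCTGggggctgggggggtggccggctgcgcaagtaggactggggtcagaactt

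Atp2a2 (chromosome 5, 122453513 to 122502225, minus strand) had no GR peak in fed muscle and 1 in starved muscle, in an intron 47.4 kb downstream of the start with a fold of 2.69. LSD1, by contrast, had its only Atp2a2 peak in the promoter in each condition, with folds of 3.73 in fed (chr5:122502345-122502615) and 3.44 in starved muscle (chr5:122502431-122502618). No GR peak overlapped it.

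GR peaks of both conditions were compared by position. Of the 22 GR fed peaks, 17 were overlapped by a GR starved peak by at least 1 bp, a share of 77.3% (exact binomial 95% CI 54.6 to 92.2, counting error only), where 65.8% of the whole list were, a value inside that interval. Taken from the starved side, 16 of 47 peaks were overlapped by a GR fed peak, or 34.0% (CI 20.9 to 49.3, whole list 24.5%). Of the 17 overlapping pairs, the fold was higher in fed muscle in 10 and higher in starved muscle in 7, with medians of 4.25 and 3.74. The number of GR peaks rose from 22 to 47, a ratio of 2.14 that lay below the 2.68 of the whole list, and was 1.82 without Tnnt3. It was 1.27 when the starved list was cut to the length of the fed list by fold enrichment, and 1.36 when each peak was given to the gene with the nearest TSS. At the fast genes the ratio was 1.89 (19 and 36 peaks) and at the slow genes 3.67 (3 and 11 peaks). With a q-value of at most 0.01 the counts were 11 and 24 at the fast and 3 and 4 at the slow genes. The order of these ratios was thus not kept.

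**Figure D4:**
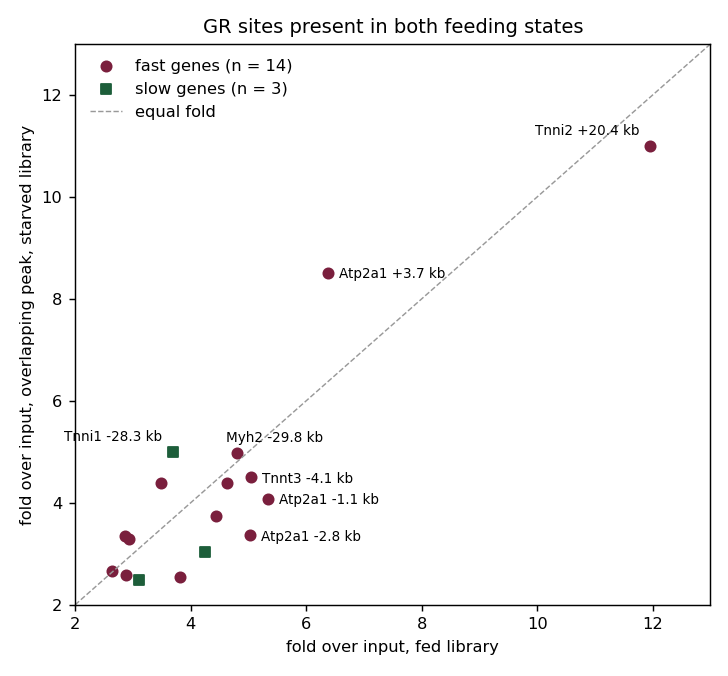
Fold enrichment over input of the 17 GR fed peaks that were overlapped by a GR starved peak, with the fed fold on the horizontal and the starved fold on the vertical axis, circles for fast genes (14) and squares for slow genes (3). The dashed line marks equal fold, and 10 points lie below it. Of the labelled sites, that of Atp2a1 at 3.73 kb is above the line and that of Tnni2 at 20.4 kb just below it.

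LSD1 peaks of the 10 genes numbered 23 (fed) and 41 (starved), a ratio of 1.78 against 3.99 for the whole list. The study, by contrast, reports fewer LSD1 peaks in starved than in fed muscle. At a q-value of at most 0.01 the ratio of the 10 genes turned to 0.625 (8 and 5 peaks), and the whole lists held 7553 (fed) and 6790 (starved) peaks. Peaks of the shortest length made up 8.66% of the fed and 30.9% of the starved list. Without them the ratio of the 10 genes was 1.29 (21 and 27 peaks). A starved peak overlapped 8 of the 23 fed peaks, or 34.8% (CI 16.4 to 57.3, whole list 23.1%). LSD1 fed peaks overlapped 10 of the 22 GR fed peaks, or 45.5% (CI 24.4 to 67.8, whole list 48.3%). In starved muscle 12 of the 47 GR peaks were overlapped by LSD1, or 25.5% (CI 13.9 to 40.3, whole list 14.7%). Taken from the LSD1 side, 13 of 41 starved peaks were overlapped by GR, or 31.7% (CI 18.1 to 48.1), where 9.14% of the whole LSD1 starved list were.

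The peak numbers of the methylation marks differed in opposite directions at these genes, as they did in the whole lists. H3K9me1 had 1 peak in fed and 14 in starved muscle, of which 9 lay at fast and 5 at slow genes, while its whole list grew 2.68-fold. With the lists cut to equal length by fold enrichment it had 1 and 1. For H3K9me2 the counts were 50 (fed) and 0 (starved), while its whole list held 0.0386 times as many peaks as the fed one. Each mark had its 2 libraries under different library codes in the labels, as had GR and LSD1, so that code and condition cannot be told apart. H3K9me2 fed peaks were most numerous at 2 slow genes, Tnni1 with 11 and Atp2a2 with 10, while Myh1 had 2. The highest lay over an exon of Ngdn in the Myh7 window, with a fold of 4.88, and the highest H3K9me1 starved peak, with a fold of 4.54, lay in an intron of Lad1 in the Tnni1 window. Both had the shortest length of their list, 50 and 49 bp, and the H3K9me2 peak was 60% repeat-masked. In starved muscle Myh1 and Atp2a2 had no H3K9me1 peak.

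Other genes of both fibre types were counted in the same way. A list of 10 further fast genes held 7.41 GR fed peaks per 100 kb and a list of 10 further slow genes 1.85, close to the 6.25 and 1.16 of the genes above. All 10 fast genes of that list had a GR fed peak, with a median of 5 peaks per gene. Of the slow genes 7 of 10 did, with a median of 1, and Tnnc1, Myl3 and Myoz2 had none. In starved muscle the densities were 10.7 and 5.27. LSD1 showed 8.83 and 1.99 per 100 kb in fed and 5.84 and 4.27 in starved muscle. The fast genes with the most GR fed peaks were Pfkm, a glycolytic enzyme, with 6 in fed and 10 in starved muscle, and Myl1, a fast myosin light chain, with 6 and 2. Among the slow genes they were Mybpc1, slow myosin binding protein C, with 4 and 7, and Pln, an inhibitor of SERCA2, with 3 and 0. H3K9me2 did not separate these lists, with 10.4 per 100 kb at the fast and 9.97 at the slow genes in fed muscle.

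Of 12 regulators of fibre type, 11 had a GR peak in fed muscle, all but Prox1, where 43.1% of all genes had one. Their merged windows came to 2021 kb, longer per gene than those of the 10 genes, and their density was 3.32 per 100 kb in fed and 6.19 in starved muscle. Sox6, a repressor of slow genes, had 15 and 24 GR peaks, and Hdac4, a histone deacetylase, had 11 and 26, counts that are not scaled to the length of the window. Among 4 neighbouring or related myosin genes the density in fed muscle was 0.818, near that of all genes. Myh3 and Myh8, the embryonic and perinatal myosins of the same cluster, had 1 GR fed peak each, and Myh13 and Myh6 had none. The Myh8 peak was the Myh4 peak with a fold of 3.02, so it was counted in both sets.

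Close matches to the glucocorticoid response element (GRE, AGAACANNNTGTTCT, which reads the same on both strands) were rare in the GR lists. None lay in the GR peaks of the 10 genes. In the 300 bases around the midpoint, 0 of 22 GR fed and 0 of 47 GR starved peaks had a match with at most 1 mismatch, where 1.79% and 0.516% of the whole lists had one. Over whole peaks the counts were again 0, against 2.17% and 0.712% of the lists. At shares this small, 0 of 22 or 0 of 47 peaks is near the background. With 2 mismatches allowed, 2 of the 22 fed (9.09%, whole list 9.75%) and 3 of the 47 starved whole peaks (6.38%, list 4.33%) held a match, which is near the shares of the lists. They are printed with the bases that the motif fixes in capitals.
Atp2a1 upstream peak, fed and starved, chr7:126464798-126464812: AGGACAaggTGTTCC
Tnni2 start peak, fed and starved, chr7:142442014-142442028: AGAGCAacaTGTGCT
Tnnt3 peak, starved, chr7:142505745-142505759: ACAACAagcTCTTCT
These sites lie at fast genes, as did 19 of the 22 GR fed and 36 of the 47 GR starved peaks searched. The CAGCTG E-box was found in the 300 bases of 9 of 22 GR fed peaks (40.9%, whole list 27.0%), 17 of 47 GR starved peaks (36.2%, list 22.7%), 9 of 23 LSD1 fed peaks (39.1%, list 26.0%) and 10 of 41 LSD1 starved peaks (24.4%, list 16.1%). A MEF2 match was found in 1 of 22 GR fed peaks (list 6.22%) and in 0 of 47 GR starved peaks (list 2.92%). The NRF1 motif GCGCATGCGC was found without mismatch in no GR or LSD1 peak of these genes, where the whole lists held it in 0.159% to 0.845% of peaks. This absence too is near the background. Promoter sequences were matched for 7 of the 10 genes. Of these, Atp2a1, Myh4 and Tnni1 held the E-box, as did 16.3% of all promoters, and Myh1 and Myh4 held a MEF2 match, as did 3.19%.

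Repeats made up little of the GR peaks of these genes. At least 50% of the bases were repeat-masked in 0 of 22 GR fed peaks (whole list 2.51%), 1 of 47 GR starved peaks (10.8%), 1 of 23 LSD1 fed peaks (5.53%) and 4 of 41 LSD1 starved peaks (24.0%).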

How the data were processed

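ChIP-seq was done by the authors on limb muscle with single-end reads. Per the labels, reads were converted with bcl2fastq 2.20.0.422. Reads were mapped to mm10 (GRCm38), and reads with 1 location outside a human-genome blacklist were kept. The authors called broad peaks in each library with MACS2, taking the input as control. The columns deposited for a peak are its fold enrichment (a ratio to input), its p-value and its q-value, each as −log10, and a score. The score was not used, and the p-value only to order peaks of equal fold. The largest q-value in the lists lay between 0.0925 and 0.0998, above the false discovery rate that the methods state. The LSD1 starved list does not have the number of peaks given in the text of the study, and may be another version. It is longer than the LSD1 fed list, whereas the study reports fewer LSD1 peaks after starvation.

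Peak midpoints were assigned with 45756 curated RefSeq transcripts of 26180 genes, and 0 peak ends of the GR and LSD1 lists lay beyond a chromosome of that build. A peak counted once per set of genes, in merged windows. Overlap meant at least 1 bp. Intervals are exact (Clopper-Pearson) at 95%. Motifs were searched in 300 bp at the midpoint and in whole peaks, on chromosomes 1 to 19, X and Y. Alternatives were a q-value of at most 0.01, a 10 kb window, merging within 1 kb, lists of equal length, the nearest TSS (peaks per gene), 50% overlap, a wider promoter, and, added after the data were seen, leaving out Tnnt3 (and Tnni2), leaving out peaks of the shortest length, promoters touched by any base of a peak, and motifs in whole peaks. Of each related list, the 2 genes with the most GR fed peaks are named, with exceptions of 5 or fewer. The 10 genes, although named without a threshold on any value, and the lists and comparisons were chosen with earlier results of these data known. With 1 library per group no test was made. Counting, overlap and motif search were tested on simulated data. Python 3.11.15, numpy 2.4.6, pandas 2.3.3, scipy 1.17.1 and matplotlib 3.10.9 were used.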

Additional observations from a re-analysis of the deposited data

Results flagged for a closer look

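The number of H3K9me1 peaks at the 10 genes was higher by 13 in starved muscle (1 and 14), whereas that of H3K9me2 peaks was lower (50 and 0). The marks went in opposite directions, and this difference was not tested, with 1 library per mark and condition. The whole lists went the same ways, with 2.68 times as many H3K9me1 peaks and 0.0386 times as many H3K9me2 peaks in starved as in fed muscle. Of all genes, 38% (fed) and 65.6% (starved) had an H3K9me1 peak, and 95.5% and 10.2% an H3K9me2 peak. The library codes of the fed and the starved sample differed for both marks, as they did for GR and LSD1.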

How the results depend on the processing

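Of 105 recomputed values, 73 stayed close to the main value in the same direction. Another 28 moved by more than 1.5 times or out of the interval, and 4 turned. The cause was not tested. Some of the 73 could not have changed. H3K9me2 starved had 0 peaks at the 10 genes, so fewer peaks, a smaller window or fewer genes again gave 0. GR fed and LSD1 fed were already the shorter lists, so cutting to equal length left their fast over slow ratios as they were. Cut to equal length by fold, the starved over fed ratio was 1.27 for GR, 0.435 for LSD1 and 1 for H3K9me1 (1 and 1 peaks), and the fast over slow ratio was 0.568 for LSD1 starved and 0 for H3K9me1 starved (0 and 1 peaks). At a q-value of at most 0.01, LSD1 starved over fed was 0.625, and fast over slow was 3.12 for GR fed, 5.11 for GR starved, 5.96 for LSD1 fed, 1.28 for LSD1 starved and 0.284 for H3K9me2 fed. In a 10 kb window fast over slow was 5.30 for GR starved, 7.95 for LSD1 fed and 2.39 for H3K9me1 starved. By nearest TSS, GR starved over fed was 1.36, and fast over slow was 4.33 for GR starved, 6.67 for LSD1 fed and 0.367 for H3K9me2 fed. Leaving out Tnnt3 and Tnni2 gave 1.76 for GR starved, and leaving out peaks of the shortest length 3.75 for LSD1 starved. With a q-value of at most 0.01 in both lists, LSD1 starved overlapped 3.57% of GR starved peaks (1 of 28) and 12.5% of LSD1 fed peaks (1 of 8). Genes with a peak at that q-value were 5 for LSD1 fed, 4 for LSD1 starved, 0 for H3K9me1 fed, 3 for H3K9me1 starved and 5 for H3K9me2 fed, and in a 10 kb window 5 for GR fed, 5 for LSD1 fed and 0 for H3K9me1 fed. A GR fed promoter peak was found at 1 gene with 1 kb on each side and at 2 with any base of a peak. The share of all genes was not computed at these settings, so these gene counts cannot be set against a background. H3K9me1 fed and H3K9me2 starved had no peak at a slow gene, so that no fast over slow ratio was computed. For GR fed, no slow-gene peak remained in a 10 kb window or by nearest TSS, so its ratio was not recomputed at these settings. The H3K9me1 starved over fed ratio was likewise left out wherever no fed peak remained at the 10 genes. No paired analysis was possible because there was 1 library per group. Depth, which is unknown, limits what the absence of a peak says.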

Other observations

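The stretch from 30 to 60 kb upstream of Myh2 lies outside the windows and was chosen after its values were seen. In its 30 kb, the counts in fed and starved muscle were 4 and 6 for GR, 4 and 6 for LSD1, 0 and 1 for H3K9me1, and 5 and 0 for H3K9me2. The highest GR fed peak there, chr11:67119473-67121352, 50.6 kb upstream of Myh2, had a fold of 8.80, above the 4.81 of the highest GR fed peak in the Myh2, Myh1 and Myh4 windows. Another, 55.9 kb upstream, had a fold of 7.39, and a peak 45.6 kb upstream one of 5.15. In starved muscle the GR peaks at these places had folds of at most 5.63, 3.59 and 2.92. The highest LSD1 fed peak of the stretch had a fold of 4.87 and overlapped the highest GR fed peak.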
